A study of Mus musculus with 43 samples.

Results

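The genes described here serve glycolysis, the pentose phosphate branch, the serine and one-carbon pathway, and the uptake of glucose and amino acids. They were taken from a fixed list of 33 names, and 31 of these had a usable probe set among the 22180 genes measured. G6pdx had no probe set, and Tkt lay only on a set shared with another gene. The 31 genes were followed in AND CD4 T cells, which carry a transgenic receptor for a moth cytochrome c (MCC) epitope, after the antigen had been withdrawn, lowered, maintained or expressed constitutively.

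Resting T cells burn pyruvate in the mitochondria. After antigen recognition they import glucose and amino acids through induced transporters, run glycolysis to lactate, and send carbon from glycolytic intermediates into serine, folate-bound one-carbon units and pentoses, which feed nucleotide synthesis. The transcription factors Myc and Hif1a are known drivers of this program: Myc is induced within the first hours of activation, and Hif1a, the oxygen-sensitive subunit of hypoxia-inducible factor 1, is also induced by receptor signalling and activates glycolytic genes.

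Donor cells were CD45.1+ and Rag2o/o. Recipients called iMCC carried 2 transgenes under which doxycycline switched on an invariant chain that presents the epitope in dendritic cells, and they had received an anti-CD40 antibody the day before transfer. All iMCC groups had 100 µg/ml doxycycline in the drinking water until day 3. The none group was then taken off the drug, the low group was kept on 10 µg/ml, and the int group stayed on 100 µg/ml. The high group used cMCC recipients, a different strain in which cells with MHC class II present the epitope constitutively and at a high level without doxycycline. Dose, strain, presenting cells and doxycycline therefore cannot be told apart for it. Among the iMCC groups the antigen level was set by the drug, so antigen and doxycycline itself cannot be told apart there. Cells were sorted as CD4+ CD90.2+ CD45.1+ on day 10 (none n = 5, low n = 5, int n = 4, high n = 4) and in a second series of sorts on day 30 (none, low and int n = 5 each). A day 30 group called off (n = 5) had been on 100 µg/ml until day 10 and then off the drug. Naive AND cells (n = 5) had spent 3 days in recipients with no transgene. The labels do not say whether cMCC recipients or those of naive cells had the anti-CD40 antibody. In cMCC mice the cells were lost by apoptosis before day 30, per the labels, so the high group exists on day 10 only. Day cannot be told apart from sort series. Whether replicates came from separate animals is not stated, so each p-value reflects only how far these arrays scatter, which may be technical scatter.

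Values are log2 probe set signals, in which a step of 1 is a doubling of signal. Array medians lay between 3.28 and 3.44. A gene was called higher or lower when the adjusted p of the limma fit over all 22180 genes was under 0.05. Errors of differences are standard errors. All 9 groups carried the genes of the sort markers, Cd4, Thy1 and Ptprc, and the T cell gene Cd3e. Mean Cd4 lay at 9.12 or more, Cd3e at 10.59 or more, Thy1 at 10.13 or more and Ptprc at 10.96 or more. Naive replicates 3 and 4 had the highest means of 8 myeloid markers, 6.79 and 6.33, where the other arrays of all groups lay between 3.62 and 5.16. The 31 genes spanned a wide range of signal. Pkm averaged 8.80 over all arrays and Hif1a 8.44, while Hk2, Pfkm and Bnip3 lay below the median gene at 3.28, 2.99 and 3.26. In these sorted populations, fewer cells of a type and less RNA per cell cannot be told apart.

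Promoter letters show what the factors named above could read near these genes. Windows from 250 bases before to 50 bases after the start, from RefSeq on GRCm38.p6, were given for 29 of the 33 genes. Of the 39 windows of these genes, 6 (15.4%) held the E-box CACGTG on either strand, against 7.15% of all 32851 windows. The core of the hypoxia response element, ACGTG on either strand, was in 19 of the 39 windows (48.7%), against 19.6% of all. Each E-box contains ACGTG on both strands, so these counts overlap. The variant core GCGTG was in 61.5% of the windows against 32.4% of all, and TTGCATC, a letter string of the amino acid response element, in 2.56% against 2.53%. Among the 8 genes that rose in the high group on day 10, 2 held CACGTG and 4 held ACGTG. Of all 29 genes with a window, 6 held CACGTG and 17 held ACGTG. Stretches of 250 bases before the start are printed for 4 of these: Hif1a, called in the most comparisons, and the glycolytic genes Ldha, Pgk1 and Tpi1, with CACGTG and ACGTG on either strand in capitals. Ldha and Hif1a hold the E-box, Pgk1 holds ACGTG without an E-box, and Tpi1, the enzyme gene with the largest increase, holds neither. For Ldha the stretch belongs to 1 of its annotated starts. A match is a description of the letters and not of binding.
Hif1a (chr12:73907617-73907866, + strand): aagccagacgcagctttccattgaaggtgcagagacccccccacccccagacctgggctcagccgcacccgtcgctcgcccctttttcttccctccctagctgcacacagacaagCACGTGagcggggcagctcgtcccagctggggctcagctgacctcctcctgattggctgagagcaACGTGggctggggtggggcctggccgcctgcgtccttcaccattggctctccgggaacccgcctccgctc
Ldha (chr7:46845554-46845803, + strand): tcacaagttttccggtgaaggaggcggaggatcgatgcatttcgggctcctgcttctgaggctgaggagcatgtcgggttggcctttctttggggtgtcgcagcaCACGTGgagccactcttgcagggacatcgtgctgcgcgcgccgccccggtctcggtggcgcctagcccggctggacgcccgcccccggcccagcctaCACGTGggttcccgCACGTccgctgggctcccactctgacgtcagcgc
Pgk1 (chrX:106186850-106187099, + strand): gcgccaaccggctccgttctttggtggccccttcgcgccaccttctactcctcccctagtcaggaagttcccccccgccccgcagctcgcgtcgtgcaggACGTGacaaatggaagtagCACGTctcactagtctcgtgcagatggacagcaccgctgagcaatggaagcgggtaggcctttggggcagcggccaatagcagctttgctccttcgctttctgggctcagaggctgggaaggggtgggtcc
Tpi1 (chr6:124814159-124814408, - strand): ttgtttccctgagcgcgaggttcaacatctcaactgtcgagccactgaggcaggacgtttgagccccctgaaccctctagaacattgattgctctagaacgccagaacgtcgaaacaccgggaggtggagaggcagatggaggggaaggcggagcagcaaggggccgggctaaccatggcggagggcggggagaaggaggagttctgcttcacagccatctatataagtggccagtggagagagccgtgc

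Hif1a was called in more antigen comparisons than any other gene of the list. It was lowest in naive cells, higher after priming and withdrawal, and highest with intermediate or high antigen. In naive cells the 5 arrays read 7.64, 6.83, 7.16, 7.73 and 7.18. On day 10 the none arrays read 8.00, 7.98, 8.04, 7.52 and 8.02, and the low arrays 8.33, 8.32, 8.25, 8.50 and 8.20. The int arrays read 9.16, 9.04, 9.07 and 9.21, and the high arrays 9.43, 9.29, 9.48 and 9.37. Every low array lay above every none array, every int array above every low array, and every high array above every int array.

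The fit called the step from none to int on day 10, where Hif1a rose by 1.21 ± 0.15 (2.31-fold, adjusted p = 5.85e-07), and the step from none to high, 1.48 ± 0.15 (2.79-fold, adjusted p = 8.04e-10). The step from none to low was 0.41 (95% interval 0.13 to 0.69) with an adjusted p of 1 and was not called. The high and int groups differed by 0.27 (95% interval -0.04 to 0.59, adjusted p = 0.486), which was not called either. In a comparison added after the values were seen, int exceeded low by 0.80 ± 0.15 (adjusted p = 0.00145).

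The same order was measured on day 30. The none arrays read 7.86, 7.88, 8.00, 7.91 and 7.89, the low arrays 8.66, 8.65, 8.43, 8.86 and 8.81, and the int arrays 9.03, 9.27, 9.07, 9.27 and 9.09. These groups did not overlap. Hif1a rose by 0.77 ± 0.14 with low antigen (1.71-fold, adjusted p = 0.0013) and by 1.24 ± 0.14 with intermediate antigen (2.36-fold, adjusted p = 4.47e-08). The int effect was 0.03 larger on day 30 than on day 10 (95% interval -0.38 to 0.44, adjusted p = 0.994), and the none groups of the 2 days differed by -0.004. Between int and low on day 30, an added comparison, the difference of 0.46 was not called (adjusted p = 0.153).

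Withdrawal of doxycycline on day 10 left Hif1a between these levels on day 30. The off arrays read 8.77, 8.89, 8.29, 8.28 and 8.16, each below every int array and above every none array. Against int the gene fell by 0.67 ± 0.14 (adjusted p = 0.00905). That call was lost without off replicate 5 (adjusted p = 0.0656) and with only the off and int arrays in the fit (adjusted p = 0.104). Against none the difference was 0.57 ± 0.14 with an adjusted p of 0.0591, and it passed the threshold with dim genes left out (adjusted p = 0.0331) and without off replicate 4 or 5 (adjusted p = 0.0475 and 0.0335). A second Hif1a probe set gave group means of 5.04 ± 0.28 (SD) in naive cells, 5.34 ± 0.23, 5.59 ± 0.10, 6.24 ± 0.08 and 6.24 ± 0.42 in the day 10 none, low, int and high groups, and 5.04 ± 0.35, 5.89 ± 0.36, 6.24 ± 0.32 and 5.59 ± 0.26 in the day 30 none, low, int and off groups. Its int and high means did not differ in order as those of the brighter set did.

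**Figure D1:**
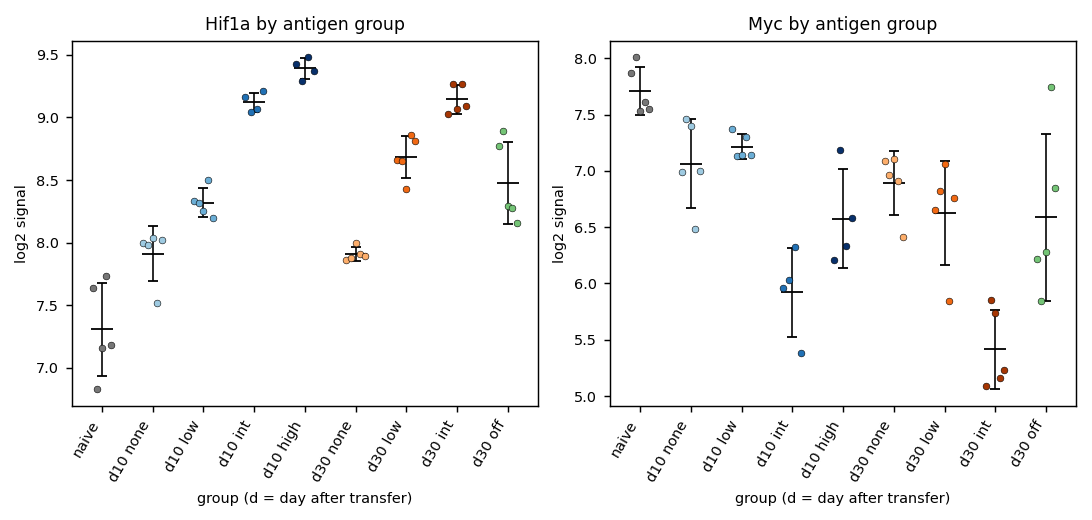
Deposited log2 signal of Hif1a (left) and Myc (right) in each of the 43 arrays by group, with d for the day after transfer; points are arrays, the long dash is the group mean and the whiskers are 1 SD. Hif1a climbs from naive arrays at 6.83 to 7.73 to high-antigen arrays at 9.29 to 9.48, while Myc is lowest in the int groups of both days.

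Myc was highest on average in naive cells, lower after priming, and lowest where intermediate antigen persisted. The difference between none and naive cells was not called on either day. The naive arrays read 7.87, 8.01, 7.53, 7.61 and 7.55. The day 10 none arrays read 6.99, 7.46, 7.40, 6.48 and 7.0, the low arrays 7.37, 7.13, 7.14, 7.30 and 7.14, the int arrays 5.96, 6.03, 6.32 and 5.38, and the high arrays 6.21, 7.19, 6.33 and 6.58. All int arrays lay below all none and low arrays of that day, and the high arrays overlapped both the none and the int arrays.

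With intermediate antigen on day 10 Myc fell by 1.14 ± 0.27 on the log2 scale (2.21-fold lower than none, adjusted p = 0.0145), a call lost without int replicate 4, none replicate 2 or none replicate 3, with adjusted p up to 0.132. It fell by 1.48 ± 0.25 on day 30 (2.79-fold lower, adjusted p = 0.000158), where the int arrays read 5.09, 5.85, 5.74, 5.16 and 5.23 and the none arrays 7.09, 6.96, 7.11, 6.91 and 6.41. The test of the difference between these int effects gave -0.34 (95% interval -1.08 to 0.41, adjusted p = 0.922). In the high group the difference from none was -0.49 (95% interval -1.03 to 0.05, adjusted p = 0.38) and that from int 0.66 (95% interval 0.08 to 1.23, adjusted p = 0.277). Neither was called, so the data do not place the high group apart from either.

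Low antigen left no called change in Myc. The difference from none was 0.15 on day 10 (95% interval -0.36 to 0.66) and -0.27 on day 30 (95% interval -0.78 to 0.24). In the added comparisons int lay below low by 1.29 ± 0.27 on day 10 (2.45-fold, adjusted p = 0.00657, lost without int replicate 4) and by 1.21 ± 0.25 on day 30 (2.32-fold, adjusted p = 0.0116, lost without low replicate 3). After late withdrawal Myc stood 1.17 ± 0.25 above int (adjusted p = 0.0136), with off arrays at 6.22, 5.84, 6.28, 7.75 and 6.85. That call was lost without off replicate 4, off replicate 5 or int replicate 1 (adjusted p up to 0.108) and with only the off and int arrays in the fit (adjusted p = 0.224). Against none, the off group differed by -0.31 (95% interval -0.82 to 0.20).

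Pdk1, a mitochondrial kinase that inhibits pyruvate dehydrogenase and so the conversion of pyruvate to acetyl-CoA, was measured by 2 probe sets that disagreed in part. The brighter set had group means of 7.67 ± 0.60 (SD) in naive cells, 7.03 ± 0.63 in day 10 none, 6.77 ± 0.45 in int and 6.17 ± 0.74 in high, and no antigen comparison on it was called in the fit of all arrays. Its difference of -0.87 between high and none (adjusted p = 0.131) passed with array weights (-1.05, adjusted p = 0.038), without high replicate 2 (-1.19, adjusted p = 0.0289), and without that array, naive replicates 3 and 4 and day 10 none replicate 4 (-1.30, adjusted p = 0.0186). It was called higher in day 30 than in day 10 none cells, by 1.09 ± 0.31 (adjusted p = 0.0372), with day 30 none arrays at 8.08, 8.04, 8.34, 7.67 and 8.49. The dimmer set showed no such step, at 6.24 ± 0.26 on day 10 and 6.22 ± 0.28 on day 30. It read 5.69 ± 0.30 in day 10 int, 5.34 ± 0.33 in high and 5.25 ± 0.39 in day 30 int. With the mean of both sets in the fit, Pdk1 was lower than none by 0.88 in the high group (adjusted p = 0.0104) and by 0.95 in the day 30 int group (adjusted p = 0.00567), and the call between the days was lost. Leaving out any 1 of 8 of the 10 none arrays also ended it. Bnip3, a mitophagy receptor and a known Hif1a target, read between 2.57 and 4.24 over all arrays and had no call in any comparison.

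Low antigen called none of the 31 genes on day 10 by limma, where 0.00451% of all genes (1 gene) were called. At an unadjusted p under 0.05 there were 4 (Hk2, Pgk1, Pgam1 and Hif1a), against 3.43% of all genes, and each alternative fit also gave 0. Intermediate antigen called 2 of 31 on day 10 (background 1.24%, of which 0.784% higher and 0.46% lower) and 2 of 31 on day 30 (background 2.21%, of which 1.42% higher and 0.794% lower), Hif1a higher and Myc lower both times. Low antigen on day 30 called only Hif1a of the 31, higher (background 0.654%, of which 0.388% higher). The median difference of the 31 genes was 0.04 with low and -0.10 with intermediate antigen on day 10, and -0.06 with intermediate antigen on day 30, where the medians over all genes were -0.004, -0.01 and -0.01. No gene of the 31 had a called difference between the int effects of the 2 days by limma (background 0.0902%, of which 0.0451% higher and 0.0451% lower). Of the 31, only Mthfd2 passed an unadjusted p under 0.05 there, where 6.7% of all genes did. Each alternative fit also called 0 of the 31.

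High antigen called 7 of 31 genes against none on day 10, all of them higher, where 2.77% of all genes were called higher, 2.48% lower and 5.25% in either direction. Against int it called 6 of 31, again all higher, where 1.4% were called higher, 1.59% lower and 2.99% in either direction. Together these were 8 genes: Hif1a, 4 glycolytic enzymes (Pfkl, Tpi1, Pgk1 and Ldha), Pgd of the pentose phosphate branch, and Psat1 and Mthfd1 of the serine and one-carbon pathway. The median difference of the 31 genes was 0.27 against none and 0.35 against int, where the medians over all genes were 0.01 and 0.03. All high arrays lay above all none arrays in 5 of the 31 genes (3.39% of all genes) and below them in 1 (3.1%), and above all int arrays in 7 (3.78%) and below them in 0 (3.68%). High replicate 4 had the highest signal of the 4 high arrays in Tpi1, Pfkl, Pgd and Psat1. Without it 2 of the 31 remained called against none, Hif1a and Tpi1, and 3 against int. Without high replicate 5 the counts were 9 and 6. With only the 2 compared groups in the fit they were 3 and 3.

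**Figure D2:**
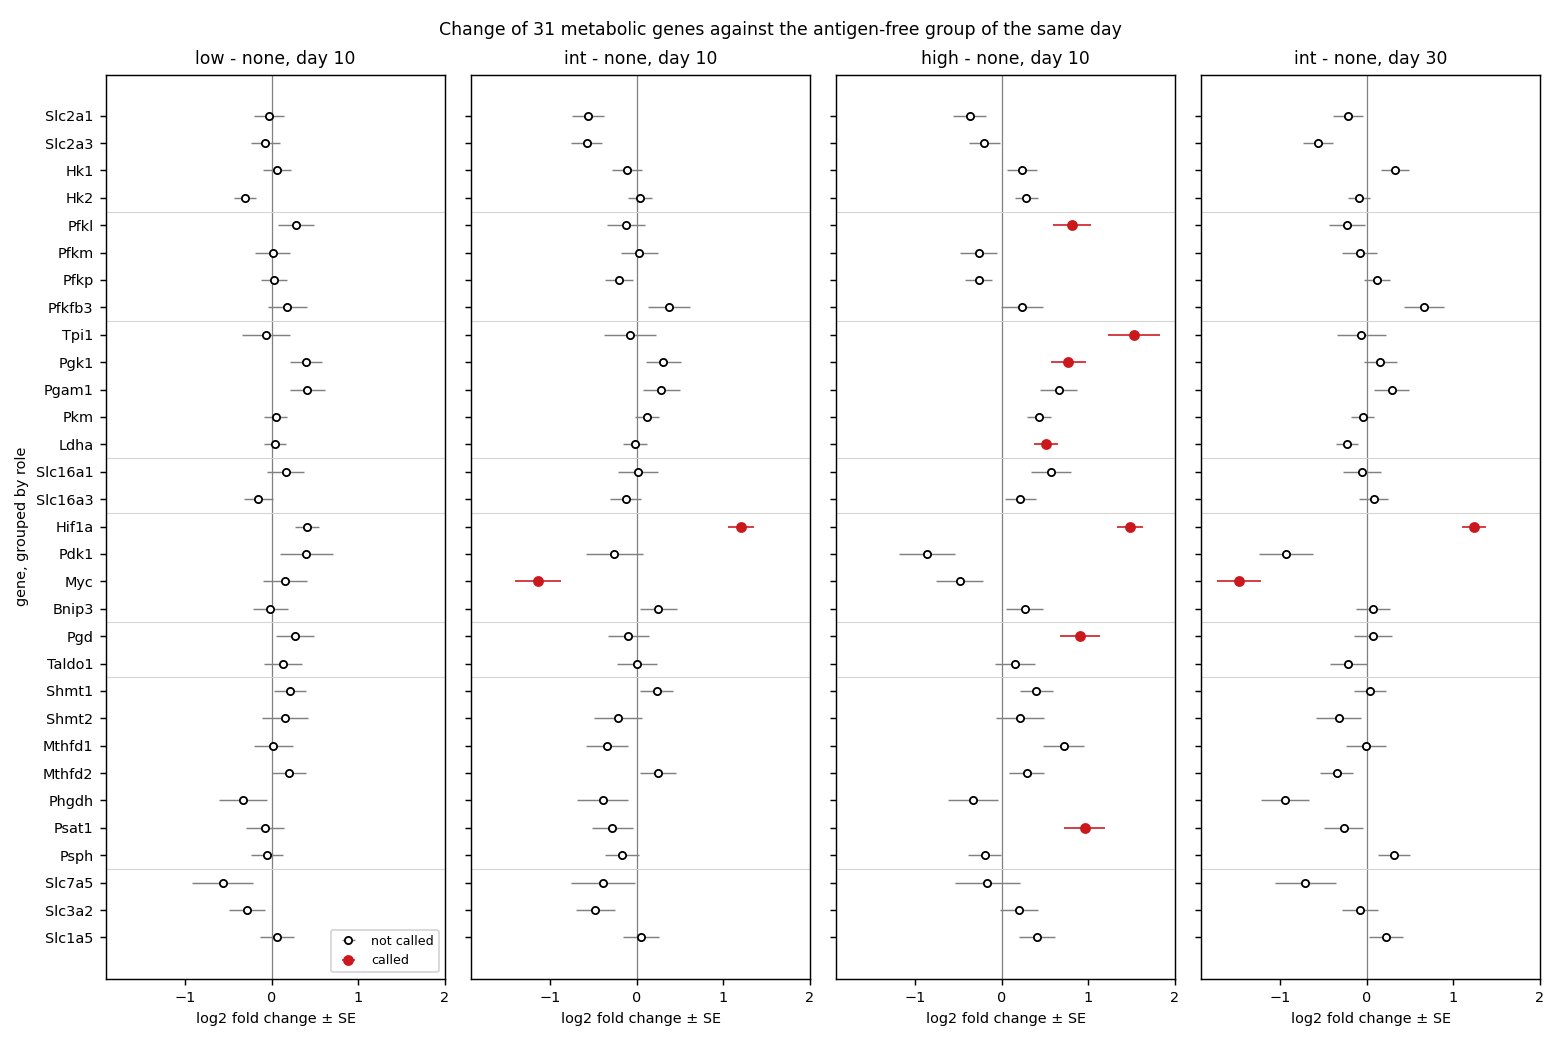
Difference in log2 signal from the none group of the same day for the 31 genes, one panel per comparison, with the standard error as a bar; filled red points were called at an adjusted p under 0.05 over all 22180 genes. Hif1a is called in both int panels and the high panel, Myc in both int panels, and 6 enzyme genes in the high panel, while the day 10 low panel holds no call (day 30 low is not plotted).

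Among the enzymes, Tpi1, the triose phosphate isomerase that keeps the carbon of both triose phosphates in the main path, had the largest difference. The high arrays read 7.04, 6.74, 7.68 and 6.34, the none arrays 5.20, 5.10, 5.29, 5.93 and 5.59, and the int arrays 4.87, 6.02, 5.11 and 5.38. All high arrays lay above all arrays of the other 8 groups, whose highest value was 6.14. Tpi1 rose by 1.53 ± 0.30 against none (2.88-fold, adjusted p = 0.000499) and by 1.61 ± 0.32 against int (3.04-fold, adjusted p = 0.000931). Both calls were kept without each array in turn and in every alternative fit.

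The other enzymes of lower glycolysis moved less. Pgk1, which makes the first ATP of the pathway, read 8.06, 8.57, 8.70 and 8.22 in the high arrays and 7.40, 7.45, 7.13, 7.85 and 8.27 in the none arrays, which overlap. It rose by 0.77 ± 0.20 against none (adjusted p = 0.0137, lost without high replicate 3 or 4 or none replicate 3) and was not called against int (0.46, adjusted p = 0.323). Naive cells held Pgk1 as high, at 7.83 to 8.70. Ldha, which makes lactate, was dim on this array, at 4.75, 4.38, 4.59 and 4.18 in the high arrays, 4.06, 4.01, 3.80, 4.19 and 3.78 in the none arrays and 4.17, 3.97, 3.80 and 3.85 in the int arrays. It rose by 0.51 ± 0.14 against none (adjusted p = 0.0184) and 0.53 ± 0.15 against int (adjusted p = 0.0317), and both calls were lost without high replicate 2 or high replicate 4. That against none was also lost without none replicate 3 or 5, and that against int without int replicate 2, 3 or 4.

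Pgam1 and Pkm, the phosphoglycerate mutase and the pyruvate kinase, were not called in the high group. Pgam1 differed from none by 0.66 ± 0.21 (adjusted p = 0.059) and Pkm by 0.44 ± 0.14 (adjusted p = 0.0588). Pgam1 passed the threshold under quantile normalization (adjusted p = 0.0148), and Pkm without none replicate 4 (adjusted p = 0.00316) or high replicate 5 (adjusted p = 0.0219). A dimmer Pgam1 probe set went the other way, at 3.62 ± 0.21 (SD) in high and 3.98 ± 0.31 in none. The mean of these 5 enzymes was 7.20 ± 0.24 (SD) in the high arrays, 6.42 ± 0.17 in none, 6.54 ± 0.17 in int and 6.59 ± 0.13 in naive cells. The high arrays, from 6.95 to 7.52, overlapped no other group, the next highest array being a day 10 low array at 6.82. Day 30 groups had means between 6.42 and 6.59.

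Upstream of these, the liver-type phosphofructokinase Pfkl read 4.63, 4.99, 5.57 and 5.27 in the high arrays, each above all none arrays (3.76 to 4.58) and all int arrays (4.03 to 4.36). It rose by 0.81 ± 0.22 against none (adjusted p = 0.0176) and 0.94 ± 0.23 against int (adjusted p = 0.0124), and both calls were lost without high replicate 4, that against none also without none replicate 1 or 2, and that against int without int replicate 1. The muscle-type Pfkm was not called in any comparison. Pfkfb3, which makes the activator of phosphofructokinase, was also never called, with its largest antigen difference in the day 30 int group (0.66 ± 0.23, adjusted p = 0.134).

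Pgd, which makes NADPH and ribulose phosphate, read 6.11, 6.81, 7.32 and 6.56 in the high arrays, 5.64, 5.61, 5.54, 6.17 and 6.01 in none and 5.94, 5.56, 5.75 and 5.54 in int. It rose by 0.91 ± 0.23 against none (adjusted p = 0.0113) and by 1.00 ± 0.25 against int (adjusted p = 0.0113). Both calls were lost without high replicate 4, with adjusted p of 0.105 and 0.0943. Taldo1, the transaldolase of the same branch, differed from none by 0.16 (95% interval -0.31 to 0.62) and was not called.

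In the serine and one-carbon pathway, Psat1 and Mthfd1 rose and 5 other genes had no called change with antigen. Psat1, the transaminase of serine synthesis, read 5.43, 6.16, 6.65 and 5.61 in the high arrays, 4.83, 5.33, 4.81, 5.00 and 5.04 in none and 4.65, 4.73, 5.06 and 4.44 in int. The high arrays did not overlap with either group. Psat1 rose by 0.96 ± 0.24 against none (adjusted p = 0.0072) and by 1.24 ± 0.25 against int (2.37-fold, adjusted p = 0.00118), and the call against none was lost without high replicate 4 (adjusted p = 0.0839).

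Mthfd1, the cytosolic enzyme that interconverts folate-bound one-carbon units, read 5.86, 6.18, 5.44 and 5.19 in the high arrays and 4.65, 4.66, 4.64 and 4.49 in int. It rose by 1.06 ± 0.25 against int (adjusted p = 0.00907), lost without high replicate 3 (adjusted p = 0.0739). Its difference of 0.72 ± 0.24 from none missed the threshold (adjusted p = 0.0761). That difference passed under quantile normalization (adjusted p = 0.0244), with dim genes left out (adjusted p = 0.0479) and without high replicate 5 (adjusted p = 0.0301). Phgdh, the first enzyme of serine synthesis, was not called, with high arrays at 6.37, 5.50, 5.98 and 5.02 against none arrays at 6.32, 5.63, 6.05, 6.34 and 5.91. On day 30 Phgdh was 0.95 ± 0.28 lower in int than in none without a call (adjusted p = 0.0563), and it passed with dim genes left out (adjusted p = 0.034) and under quantile normalization (adjusted p = 0.0378). Psph, Shmt2 and Mthfd2 had no call in any comparison.

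Markers of dividing cells moved with the high group. Of 17 measured cell cycle genes, 9 were called higher in high than in none, and 4 higher in high than in int. Their mean ran from 4.37 to 5.17 in the high arrays, from 3.97 to 4.02 in none, from 4.22 to 4.64 in int and from 4.55 to 5.18 in naive cells. The part of these markers in the results above was not tested. High replicate 4, with the highest cell cycle mean of the high arrays (5.17), also had their highest Tpi1, Pfkl, Pgk1, Pgd and Psat1. High replicate 5, with the lowest (4.37), had their lowest Tpi1 (6.34), Ldha (4.18), Mthfd1 (5.19) and lower glycolysis mean (6.95). High replicates 2 and 3 had cell cycle means of 5.06 and 5.07, close to that of replicate 4. The lowest Pfkl (4.63), Pgk1 (8.06), Pgd (6.11) and Psat1 (5.43) of the high arrays were in replicate 2. Naive arrays, with cell cycle means of 4.55 to 5.18, read 7.83 to 8.70 for Pgk1, 5.05 to 5.76 for Tpi1 and 3.36 to 4.49 for Pfkl. They read 5.55 to 6.26 for Pgd, 5.30 to 5.76 for Psat1, 3.61 to 4.13 for Ldha and 4.57 to 5.30 for Mthfd1. Naive replicates 3 and 4, with the highest cell cycle means of the naive arrays (5.09 and 5.18), also had the highest myeloid means.

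Of 6 measured T cell genes, Cd3g was called higher and Thy1 and Lat lower than in none, and Thy1, Ptprc and Lat were called lower than in int. Of 8 myeloid genes, Cst3 was called higher against both none and int, and the mean of the 8 was 3.95 to 4.48 in the high arrays, 3.69 to 5.04 in none and 3.75 to 4.37 in int. Of 4 NK and CD8 cell genes, Klrb1c was called higher against none, and the mean of the 4 was 3.66 to 4.22 in high, 3.41 to 3.83 in none and 3.65 to 4.05 in int. The mean of 6 B cell genes was 3.21 to 3.50 in high, 3.32 to 3.65 in none and 3.33 to 3.92 in int. The part of these markers was not tested.

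**Figure D3:**
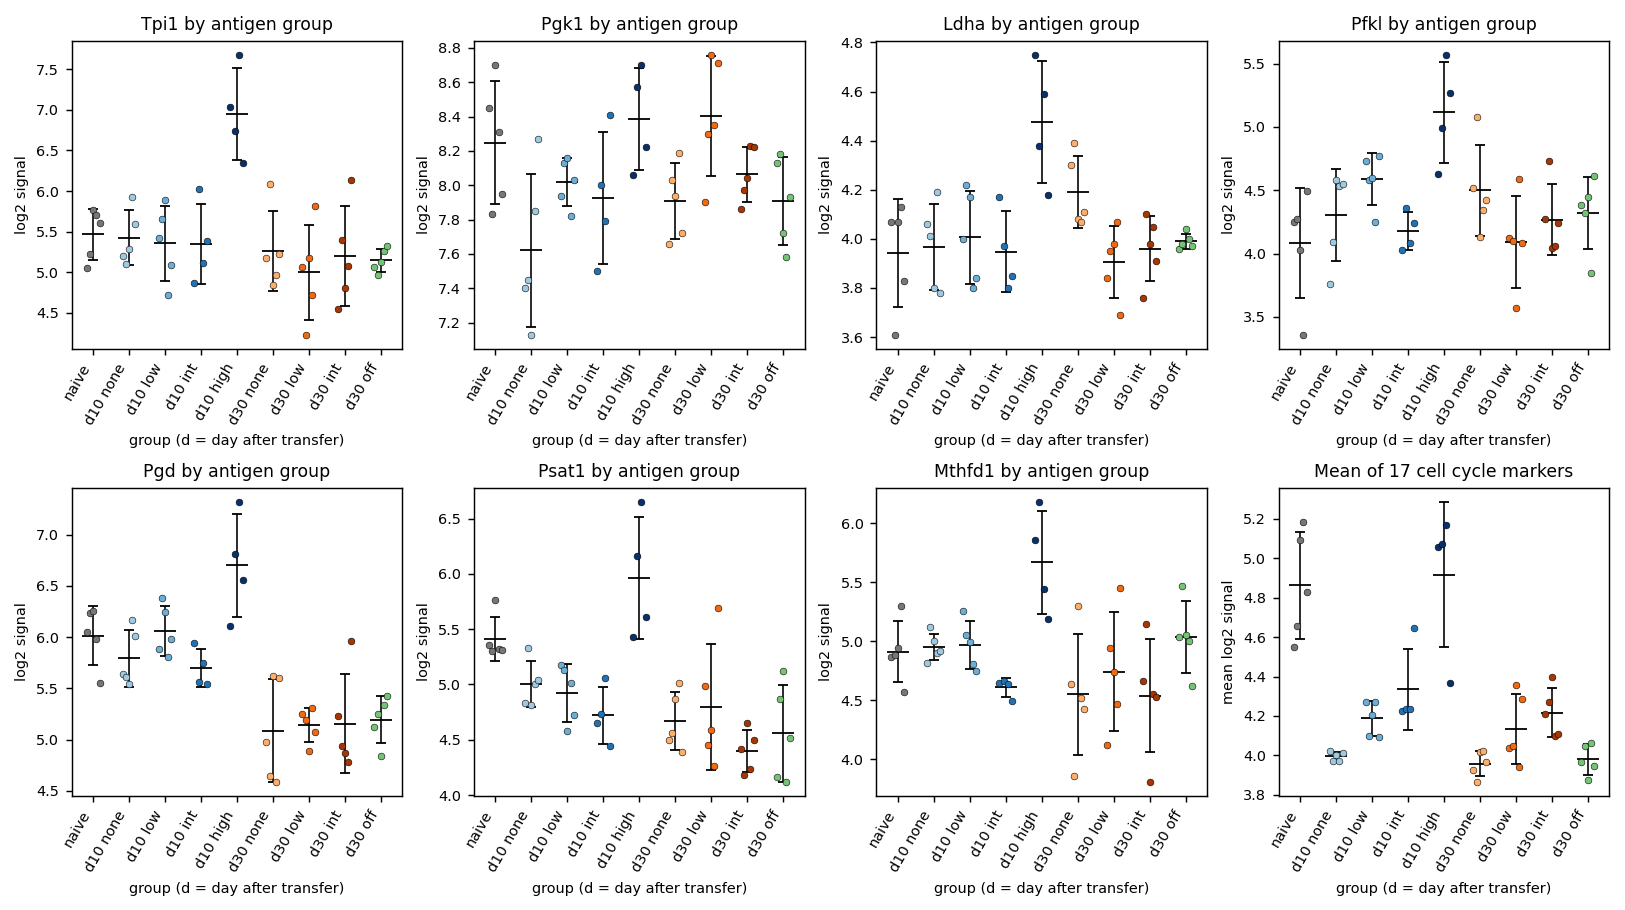
Log2 signal by array and group for the 7 metabolic genes called higher in the high group besides Hif1a, and, in the last panel, the mean of 17 cell cycle markers; points are arrays, the dash is the group mean and whiskers are 1 SD. The high arrays stand above all others for Tpi1 (6.34 to 7.68), whereas Pgk1 in naive and day 30 low cells reaches the same level.

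No transporter was called with high antigen. None of the glucose transporters Slc2a1 and Slc2a3, the hexokinases Hk1 and Hk2, the lactate exporters Slc16a1 and Slc16a3, or the amino acid carriers Slc7a5, Slc3a2 and Slc1a5 was called between high and none or between high and int by limma. At an unadjusted p under 0.05, Hk2 and Slc16a1 passed against none, where 16.3% of all genes did. Slc16a1 and Slc3a2 passed against int, where 13.1% of all genes did. Slc16a1, which carries lactate and pyruvate, differed by 0.57 ± 0.23 from none (adjusted p = 0.174), with high arrays at 4.84, 4.34, 4.06 and 4.46 and none arrays at 4.11, 4.08, 3.62, 3.57 and 3.91. Slc16a3 differed by 0.22 ± 0.18 (adjusted p = 0.63).

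No glucose transporter was called with antigen on either day. Slc2a1, the main glucose transporter of activated T cells, read 6.52, 6.38, 6.53 and 6.24 in the day 10 int arrays, all below the none arrays at 6.89, 6.99, 7.09, 6.92 and 7.0. The difference of -0.56 ± 0.19 had an adjusted p of 0.177 and was not called, but with array quality weights it was -0.59 (adjusted p = 0.0315). Slc2a3, a dim second glucose transporter, gave -0.58 ± 0.18 in the same comparison (adjusted p = 0.126, and 0.0277 with array weights) and -0.56 ± 0.17 in day 30 int cells (adjusted p = 0.0716, and 0.0421 with dim genes left out). Across the 31 genes, 4 had all day 10 int arrays below all none arrays (2.16% of all genes did), and 1 had all above (2.66%).

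Slc7a5, the large neutral amino acid carrier that pairs with Slc3a2, was the most uneven of the transporters. In the high group its arrays read 5.08, 7.69, 6.61 and 6.77, a wider range than the none arrays at 6.90, 6.11, 7.20, 6.89 and 6.43. On day 30 it read 7.38, 6.90, 6.30, 7.79 and 7.27 with low antigen and 5.87, 5.43, 5.39, 5.00 and 6.53 with intermediate antigen. In that added comparison Slc7a5 was lower in int by 1.48 ± 0.35 (2.80-fold, adjusted p = 0.0352), where 2 of 31 genes were called, both lower (background 0.546%, of which 0.248% lower). The call was lost without any 1 of low replicates 1, 4 and 5 and int replicates 1 to 4 (adjusted p up to 0.125), in a fit of these groups alone and with array weights. Against none, neither low (0.77, adjusted p = 0.397) nor int (-0.71, adjusted p = 0.387) was called for this gene on day 30. Slc3a2 had no call in any comparison. The added day 10 comparison of int with low called 2 of 31, Hif1a and Myc (background 0.541%, of which 0.307% higher and 0.234% lower).

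Cells sorted from antigen-withdrawn mice also differed from naive cells in several of these genes. Time in the host, recipient strain and doxycycline differed as well between these groups and cannot be told apart from earlier antigen contact. Grouping the naive arrays with the day 30 sort series was a choice made for an alternative fit with a replicate block. If sort series differed between naive and none cells on either day, it cannot be told apart either. Cells that had met antigen for 3 days and then rested differed from naive cells on day 10 in 5 of 31 genes (3.3% of all genes were called), 4 higher (background 1.9%) and 1 lower (background 1.41%). On day 30 they differed in 6 of 31 (4.33% of all genes), 2 higher (background 1.98%) and 4 lower (background 2.35%). All none arrays lay above all naive arrays in 2 of 31 genes on day 10 (1.94% of all genes) and below them in 2 (1.56%), and on day 30 above them in 2 (1.87%) and below them in 5 (2.08%). The same naive arrays served both comparisons. Naive cells also had higher cell cycle markers (9 of 17 called lower in none on each day) and B cell and myeloid markers, so the values of those lists stand beside these differences. The mean of 8 myeloid markers ran from 4.07 to 6.79 in naive arrays, 3.69 to 5.04 in day 10 none and 3.63 to 4.17 in day 30 none. The mean of 6 B cell markers ran from 3.41 to 5.59, 3.32 to 3.65 and 3.29 to 3.67. Their part was not tested, and the counts without naive replicates 3 and 4, day 10 none replicate 4 and high replicate 2 were 4 on day 10 and 5 on day 30. Leaving out each array in turn gave 3 to 6 on both days. On day 10 it was 3 without none replicate 1, 2 or 3 or naive replicate 3, and on day 30 it was 3 without none replicate 1 or naive replicate 5.

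Pfkp, the platelet-type phosphofructokinase, showed the clearest step. The naive arrays read 6.85, 6.74, 6.17, 6.42 and 6.17, and the day 10 none arrays 8.08, 7.33, 7.84, 7.80 and 7.68. All arrays of every primed group lay above all naive arrays, the lowest being a day 30 low array at 7.22. Pfkp rose by 1.28 ± 0.15 on day 10 (2.42-fold, adjusted p = 6.26e-08) and by 0.98 ± 0.15 on day 30 (1.97-fold, adjusted p = 2.43e-05), and both calls were kept in every alternative fit and without each array in turn. Antigen level made no called difference to it, with -0.27 in high (95% interval -0.59 to 0.06) and 0.11 in day 30 int (95% interval -0.19 to 0.42) against none. Of the 3 phosphofructokinase subunit genes, Pfkp was called against naive cells, Pfkl in the high group and Pfkm in no comparison, and these differences between genes were not tested.

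Hif1a rose by 0.60 ± 0.14 against naive on both days (adjusted p = 0.00588 and 0.00591), and these calls were lost with the mean of its probe sets and with only the compared groups in the fit, with adjusted p up to 0.155 on day 10 and 0.27 on day 30. Slc2a1 rose by 0.62 ± 0.18 on day 10 (1.53-fold, adjusted p = 0.0369), with naive arrays at 6.71, 6.54, 6.44, 6.34 and 5.77 and no overlap with none. Its second, dimmer probe set read 4.02 ± 0.30 (SD) in naive and 3.85 ± 0.13 in day 10 none cells, and the call was lost with the mean of both sets (adjusted p = 0.718). Slc1a5, the glutamine carrier, rose by 0.69 ± 0.20 on day 10 (adjusted p = 0.0382), with naive arrays at 7.33, 8.43, 7.48, 8.05 and 7.59 and none arrays at 8.50, 8.71, 8.74, 7.68 and 8.68. For Slc2a1 and Slc1a5 the call was lost after median centring and on leaving out any 1 of 7 arrays: none replicates 1, 2, 3 and 5 and naive replicates 3 and 5 for both, with naive replicate 4 for Slc2a1 and naive replicate 1 for Slc1a5. On day 30 neither was called against naive (0.40, adjusted p = 0.221, and 0.34, adjusted p = 0.393).

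**Figure D4:**
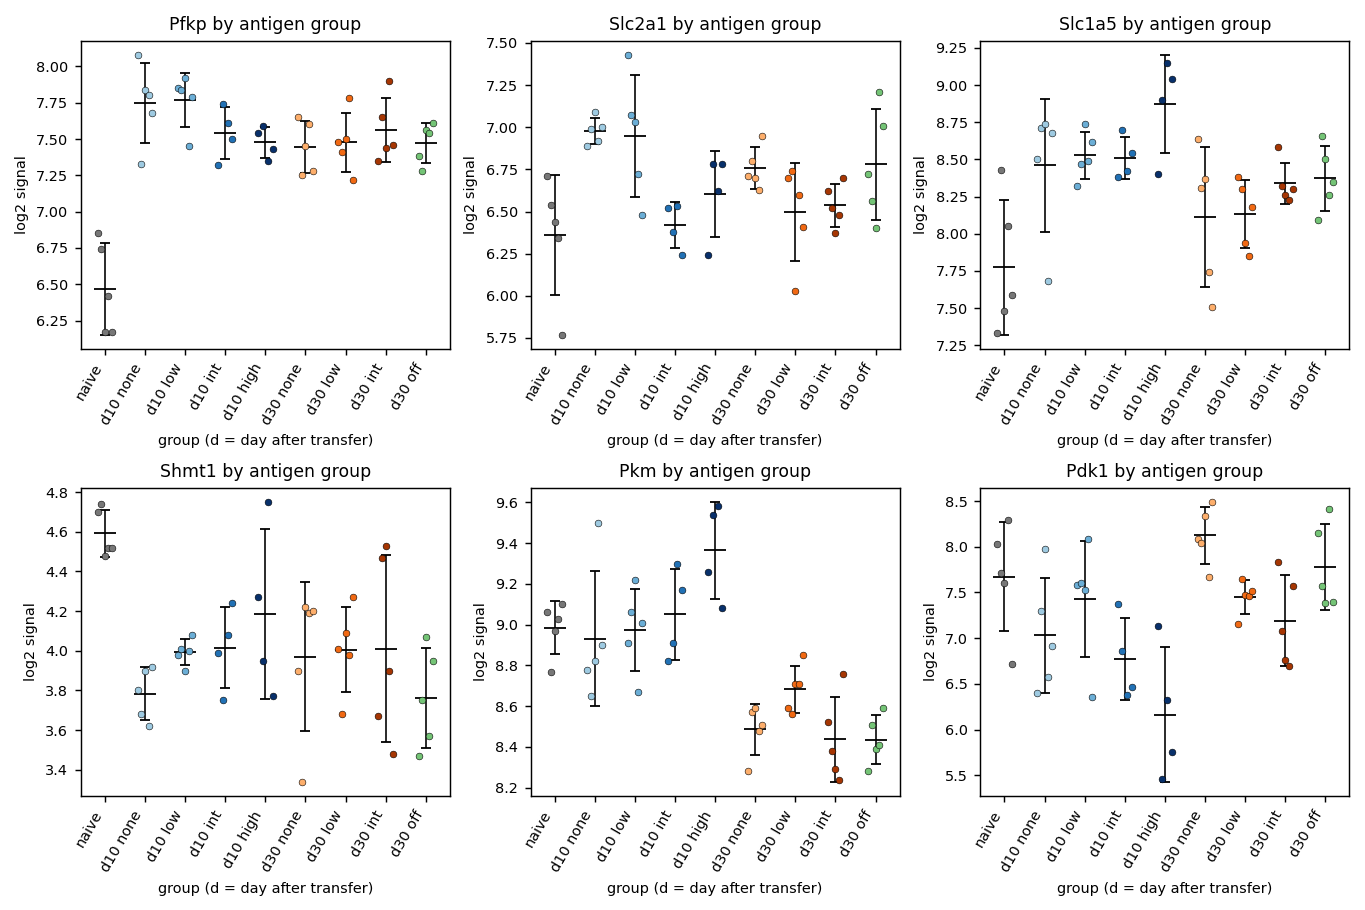
Log2 signal by array and group for 6 genes that were called against naive cells or between the none groups of the 2 days; points are arrays, the dash is the group mean and whiskers are 1 SD. Pfkp reads 6.17 to 6.85 in naive arrays and at least 7.22 in every other array, and Shmt1 reads highest in naive cells on average.

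The genes called lower in none than in naive cells belonged to the serine and one-carbon, pentose phosphate and lower glycolysis groups. On day 10 only Shmt1 was among them. Shmt1, the cytosolic serine hydroxymethyltransferase, read 4.70, 4.74, 4.48, 4.52 and 4.52 in naive arrays and 3.80, 3.68, 3.90, 3.62 and 3.92 in day 10 none arrays, with no overlap. It fell by 0.81 ± 0.18 on day 10 (1.75-fold, adjusted p = 0.00465), a call kept in every alternative fit and without each array in turn. On day 30 it fell by 0.62 ± 0.18 (adjusted p = 0.0386), a call lost in 5 of 10 alternative fits. Psat1 fell by 0.74 ± 0.22 on day 30 (adjusted p = 0.0438, lost in 7 of 10 alternative fits), from naive arrays at 5.36, 5.30, 5.76, 5.32 and 5.31 to 4.50, 4.56, 4.87, 5.01 and 4.39.

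Pgd fell by 0.93 ± 0.22 on day 30 against naive (1.90-fold, adjusted p = 0.00703), from 6.05, 6.24, 6.26, 5.98 and 5.55 to 4.98, 4.65, 5.62, 4.59 and 5.60, where 2 none arrays overlapped. Pkm, the brightest of the 31, fell by 0.50 ± 0.13 (1.41-fold, adjusted p = 0.0181, lost without none replicate 1 or naive replicate 5), from 9.06, 8.77, 8.97, 9.03 and 9.10 to 8.28, 8.57, 8.59, 8.48 and 8.51. The day 30 none arrays lay below all naive arrays and all day 10 none arrays (8.65 to 9.50). Neither Pgd nor Pkm was called against naive on day 10. Both were lower in every day 30 group, whatever the antigen. Group means of Pkm were 8.44 to 8.68 on day 30 and 8.93 to 9.365 on day 10. Those of Pgd were 5.09 to 5.20 and 5.70 to 6.70. Day cannot be told apart from sort series here. Against day 10 none Pkm fell by 0.44 ± 0.13 (adjusted p = 0.0486), where 2 of 31 were called (Pdk1 higher and Pkm lower, background 3.43%, of which 1.51% higher and 1.93% lower), but the Pkm call was lost without 9 of the 10 arrays in turn. Myc was 0.65 lower than naive on day 10 (adjusted p = 0.21) and 0.82 lower on day 30 (adjusted p = 0.0531), neither called, and passed on day 30 with dim genes left out (adjusted p = 0.0331).

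After late withdrawal, the off group called none of 31 genes against none by limma (background 0.266%, of which 0.0721% lower). At an unadjusted p under 0.05 there were 5, where 11.1% of all genes passed, and the alternative fits called 0 or 1. The off group called 2 of 31 against int, Hif1a lower and Myc higher (background 0.464%, of which 0.198% lower and 0.266% higher). The mean of 8 myeloid markers was 4.20 to 5.16 in the off arrays, 3.63 to 4.17 in day 30 none and 3.92 to 4.50 in int. Among them, 2 were called higher in off than in none, and their part was not tested.

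The mean over the 31 genes is a description without a test. It ran from 5.81 to 6.07 in the high arrays, above every other array of the series, whose highest was 5.79. Its group means were 5.68 in naive cells, 5.63, 5.68, 5.55 and 5.93 in day 10 none, low, int and high cells, and 5.61, 5.61, 5.51 and 5.58 in day 30 none, low, int and off cells. The difference was 0.29 between high and none and 0.37 between high and int, while the int means lay 0.08 and 0.11 below none on days 10 and 30.

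**Figure D5:**
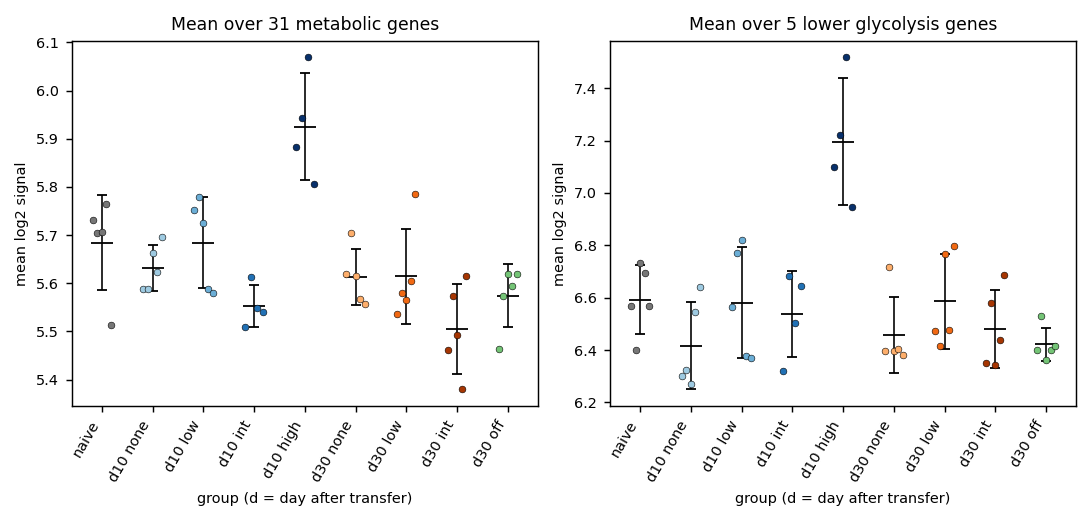
Mean log2 signal per array over the 31 genes (left) and over the 5 lower glycolysis genes Tpi1, Pgk1, Pgam1, Pkm and Ldha (right), by group; points are arrays, the dash is the group mean and whiskers are 1 SD. In both panels the 4 high arrays lie above all others, from 5.81 to 6.07 and from 6.95 to 7.52.

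Of 62 further genes of the same pathways on a list written for the comparison, 54 were measured and few were called. High against none called 2 higher and 1 lower, a share of 5.56% beside 5.25% of all genes: Gapdh rose by 0.55 ± 0.09 (adjusted p = 2.57e-05), Ndrg1, a hypoxia-inducible gene, by 0.85 ± 0.21 (adjusted p = 0.00697), and Txnip, an inhibitor of glucose uptake, fell by 0.93 ± 0.16 (adjusted p = 9.85e-05). High against int also called 3 of the 54, where 2.99% of all genes were called: Aldoc (0.64, adjusted p = 0.0341) and Ndrg1 (0.75, adjusted p = 0.0463) were higher and Egln3, an oxygen-sensing hydroxylase of Hif1a, lower by 1.96 ± 0.42 (adjusted p = 0.00247), with int arrays spread from 4.39 to 7.16. Gapdh and Aldoc were named after their values were seen.

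Against naive cells, Ndrg1 fell on both days, by 1.64 ± 0.20 (adjusted p = 6.58e-08) and by 1.25 ± 0.20 (adjusted p = 2.69e-05). Pdk2, a second pyruvate dehydrogenase kinase, fell by 1.04 ± 0.24 on day 10 (adjusted p = 0.00606) and Ldhb, the heart-type lactate dehydrogenase subunit, by 0.98 ± 0.23 (adjusted p = 0.00815). Vhl, which marks Hif1a for degradation, was higher in int than in none on day 30 (0.93 ± 0.22, adjusted p = 0.0127). None of the 54 was called in the other 7 of the 12 comparisons fixed at the start, by limma at the same threshold.

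The members without a call spanned faint to moderately bright signals. Among the hexokinases, which trap glucose in the cell, Hk1 had group means from 5.35 ± 0.25 (SD) in naive cells to 5.95 ± 0.15 in the high group, and Hk2 from 2.97 ± 0.07 in day 10 low to 3.57 ± 0.17 in the high group. The smallest adjusted p of Hk1 was 0.325, in day 10 none against naive. Slc16a3, the lactate exporter of glycolytic cells, stayed between 3.39 and 3.76 in group means. Another probe set that lists Slc16a3 also lists its neighbour Csnk1d and was not used.

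Taldo1 was brighter on day 30 than in naive cells, at 7.17 ± 0.33 in none against 6.62 ± 0.59, without a call (0.55 ± 0.22, adjusted p = 0.165). Without naive replicate 4 the difference was 0.76 and passed (adjusted p = 0.0329). The mitochondrial enzymes of one-carbon metabolism differed in sign against naive cells. Shmt2, the mitochondrial serine hydroxymethyltransferase, read 6.32 ± 0.44 in naive and 5.66 ± 0.40 in day 30 none cells (adjusted p = 0.16), and Mthfd2, a mitochondrial folate enzyme of proliferating cells, 5.23 ± 0.16 and 5.69 ± 0.27 (adjusted p = 0.2). Psph, which completes serine synthesis, had group means between 5.13 and 5.50, and Slc3a2, the heavy chain that carries Slc7a5 to the membrane, between 6.05 and 6.84. Slc3a2 was highest in the high group, 0.68 ± 0.23 above int without a call (adjusted p = 0.123), and this passed with array weights (adjusted p = 0.0423).

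Over all 14 comparisons, 16 of the 31 genes had at least 1 call and 15 had none. The latter were Slc2a3, Hk1, Hk2, Pfkm, Pfkfb3, Pgam1, Slc16a1, Slc16a3, Taldo1, Shmt2, Mthfd2, Phgdh, Psph, Bnip3 and Slc3a2. Of these, Hk2, Pfkm and Bnip3 were below the median gene in signal, and a missed call does not show that a gene did not change.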

How the data were processed

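RNA of sorted cells (0.1 to 30 ng, amplified with Ovation Pico WTA, per the labels) had been measured on 43 arrays. The deposited table holds log2 signals for 41345 probe sets. Its normalization is not given in the sources used here, and the values were used as deposited. Gene names came from the platform annotation: 23521 probe sets had 1 symbol, 1814 several and 16010 none. For each of 22180 genes the set with 1 symbol and the highest mean was kept, and 5 of the genes described had more than 1 such set.

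Group means of all 43 arrays were fitted once with limma 3.58.1 in R 4.3.3 (lmFit, eBayes with a variance trend). P-values were Benjamini-Hochberg adjusted over all genes. The script was tested on simulated data. Of the 14 comparisons, 2 (int against low on each day) were added after the values were seen. Any of the 33 genes could be named, and up to 6 of the further pathway genes, those called in the most comparisons with ties broken by the largest fold change. Values in every array were planned for genes called in 4 or more comparisons; those of other genes, and the promoters printed besides that of Hif1a, were chosen after their values were seen. Alternatives covered normalization, probe set choice, dim genes, array weights, the arrays fitted, a replicate block and leaving out arrays. The gene lists were chosen with earlier results of these data known. Array data give no read depth, and the number of arrays limits the precision.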

Additional observations from a re-analysis of the deposited data

Results flagged for a closer look

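Single arrays stood apart from the rest of their group, with a gap to the nearest array above Dixon's 95% critical value, in 14 of the 288 groups of 4 or 5 arrays examined (4.9%), and chance alone gives about 1 in 20. On day 10, none replicate 4 was low for Hif1a (7.52, the others 7.98 to 8.04) and for Slc1a5 (7.68, the others 8.50 to 8.74). Low replicate 4 was low for Pfkp (7.45, the others 7.79 to 7.92), low replicate 5 high for Phgdh (6.08, the others 5.57 to 5.67), and int replicate 4 low for Mthfd1 (4.49, the others 4.64 to 4.66). On day 30, none replicate 5 was low for Myc (6.41, the others 6.91 to 7.11), low replicate 3 low for Pfkfb3 (4.05, the others 4.80 to 5.01), and low replicate 5 high for Taldo1 (7.68, the others 6.97 to 7.06). Off replicate 5 was high for Pfkm (3.56, the others 2.74 to 2.96), off replicate 4 low for Slc3a2 (6.05, the others 6.46 to 6.56), and int replicate 1 high for Slc1a5 (8.58, the others 8.23 to 8.32). Naive replicate 3 was high for Psat1 (5.76, the others 5.30 to 5.36). In the mean over the 31 genes, day 30 low replicate 5 was high (5.79, the others 5.54 to 5.61) and naive replicate 5 was low (5.51, the others 5.71 to 5.77).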

How the results depend on the processing

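Of the 37 calls made on the 31 genes over 14 comparisons, 16 were kept under every alternative setting, 15 on leaving out each array in turn, and 12 under all of these. None changed sign. The 12 were Pfkp and Shmt1 in day 10 none against naive, Pfkp in day 30 none against naive, Hif1a in day 10 int, day 10 high, day 30 low and day 30 int against none and in day 10 int against low, Tpi1 in both high comparisons, Psat1 in high against int, and Myc in day 30 int against none. Counts of called genes that moved by over 1.5 times are given by setting, and the cause was not tested. With only the compared groups in the fit, and so fewer arrays, the counts were 2 in both none against naive comparisons, 3 in both high comparisons, 0 in off against int and in day 30 int against low, and 1 between the none groups of the 2 days. With array weights they were 4 in day 10 int against none and against low, 1 in day 30 int against low and 0 between the none groups. Median centring gave 3 in day 10 none against naive and 1 between the none groups, the mean of all probe sets 3 and 1, and quantile normalization 1 between the none groups. Leaving out dim genes gave 4 in day 30 int against none and 1 in off against none. Without naive replicates 3 and 4, day 10 none replicate 4 and high replicate 2, off against none had 1 and the none groups 0. Under quantile normalization the mean over the 31 genes differed by -0.104 in off against none and by 0.096 between the none groups, and under median centring by -0.023 in day 10 int against none.

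Leaving out 1 array at a time gave 3 to 6 called genes against naive on both days, 0 to 0 for low and 1 to 2 for int on day 10, 2 to 9 for high against none, 3 to 6 for high against int, 1 to 1 for low and 2 to 3 for int on day 30, 0 to 1 for off against none, 0 to 2 for off against int, 0 to 1 between the none groups, 0 to 0 for the difference of the int effects, and 1 to 2 for int against low on both days. The replicate block gave 5 calls in each none against naive comparison, and 4 on day 30 with the block within the sort series. It changed no other count by over 1.5 times. Over 54 same-numbered pairs of arrays the deviations from group means had a median correlation of -0.002 (range -0.182 to 0.117). Pairs with other numbers had a median of -0.001. No pairing by number was seen, but a weak one is not excluded.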
